A study of Mus musculus and Homo sapiens with 352 samples.

Results

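Two-sided anchors are stretches of the genome at called CTCF peaks from which listed chromatin interactions ran both to the left and to the right. Left means toward lower coordinates. They were selected on the interaction lists themselves: an anchor had to have 3 to 5 partner anchors in the list of wild-type cells and 3 to 5 in the list of mutant cells, with at least 1 partner on each side in both lists. The rule found 230 anchors among 16928 distinct anchors of either list. Since partner numbers and sides chose the anchors, these are described below without a test.

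The interactions came from ChIA-PET, in which chromatin is pulled down with an antibody, and DNA ends that lay together are ligated and sequenced as pairs. The authors listed interactions at CTCF peaks, per the file headers, while the labels read here do not name the antibody of these libraries. Both libraries were made from the mouse B lymphoma line CH12. Cells of 1 library were wild type, and those of the other had the genotype CTCFmZF9to11, whose name points to zinc fingers 9 to 11 of CTCF. The sources used here do not give whether the mutant line is 1 clone or how many alleles carry the mutation. The series holds 352 samples in all, and the labelled cell type was not checked against marker genes, since the lists used here hold no expression values.

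CTCF binds DNA through its zinc fingers at a motif that has a direction. Cohesin is thought to extrude chromatin loops and to halt at CTCF, mostly where the motif points into the loop, so that a single bound site is known mainly for contacts to 1 side and loop ends are known mainly as convergent motif pairs. Groups of CTCF sites with motifs in opposite directions are typical of the borders of chromatin domains. In B cells CTCF loops also frame the antigen receptor loci.

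Listed interactions numbered 11534 in wild type and 11820 in mutant, supported by 74198 and 82222 sequenced pairs, called tags. Each genotype had 1 library, so no difference below has a replicate check and each compares 2 libraries rather than genotypes. Intervals are 95% Wilson intervals for shares and 95% order-statistic intervals for medians. They cover counting error only and treat anchors, partners or pairs as independent, although partners of 1 anchor share it. Positions are in mm9, and genes and sequence at the anchors were not analysed here.

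Of 1021 anchors with 3 to 5 partners in each list, 230 (22.5%, 20.1 to 25.2) had partners on both sides in both lists. A further 542 (53.1%) had all partners on 1 side in both lists and serve as the comparison set, called one-sided anchors below. In addition, 163 anchors were one-sided only in wild type and 86 only in mutant. At the lower threshold, the 60 members with exactly 3 partners in each list had a median of 24 wild-type and 24.5 mutant tags, whereas 193 two-sided anchors with 2 partners in at least 1 list and at most 5 in the other had medians of 14 and 15. At the upper threshold, the 67 members with 5 partners in at least 1 list had medians of 27 and 34 tags. The 57 two-sided anchors just over it, with 6 partners in at least 1 list, had medians of 32 and 49. With interactions of 4 or more tags only, 122 anchors met the rule, and with no upper limit of partners 363 did.

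The members lay on 19 chromosomes. Chromosome 11 held 31 of them and chromosome 14 held 25. On chromosome 14 they made up 32.1% (22.7 to 43.0) of its 78 anchors with 3 to 5 partners in each list, and on chromosome 2 they made up 13.5% (7.51 to 23.1) of 74. These intervals overlap. The X chromosome held 77 of the 9095 anchors found in both lists and none with 3 to 5 partners in each. The distance from a member to the next member of its chromosome had a median of 3262 kb. Nevertheless 26 wild-type and 30 mutant interactions joined 2 members to each other, 24 of them in both lists, so that 45 members (19.6%) in wild type and 55 (23.9%) in mutant were partners of another member.

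Few members divided their partners evenly, but an even split was possible only with 4 partners. With 3 partners the rule leaves only 1 against 2. In the wild-type list 112 members had 1 partner on a side against 2 on the other, 68 had 1 against 3 and 22 had 1 against 4, whereas 16 had 2 against 2 and 12 had 2 against 3. The corresponding numbers in the mutant list were 100, 62, 22, 22 and 24. A lone partner on at least 1 side was thus found at 202 wild-type members (87.8%, 83.0 to 91.4) and at 184 mutant members (80%, 74.4 to 84.7). These include the 112 and 100 members with 3 partners, whose lone partner was fixed by the rule. Over all members the directions were nearly equal. Left and right partners numbered 429 and 413 in wild type and 433 and 433 in mutant, and 52.1% of wild-type and 52.5% of mutant tags went left.

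Tags were more uneven than partners. A member had a median of 26 wild-type tags (lowest 9, highest 149) and 30 mutant tags (lowest 9, highest 150). The side with fewer tags, called the lighter side, held a median of 20.3% (18.8 to 23.1) of a member's wild-type tags and 21.7% (19.4 to 23.5) of its mutant tags. The middle of the distribution, from the lower to the upper quartile, ran from 14.3% to 29.9% in wild type and from 15.2% to 33.2% in mutant. The lighter side held under 10% of tags at 27 members in each list, and 40% or more at 27 members in wild type and 29 in mutant.

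The side with fewer partners was poorer in tags for each partner as well. Where partner numbers differed between the sides, that side had a median of 4 tags per partner against 7.33 on the other side in wild type (214 members), and 5 against 8.42 in the mutant list (208 members). It held more tags than the other side at 13 of 214 wild-type and 14 of 208 mutant members. A single strongest partner accounted for a median of 47.8% (45 to 51.9) of a member's wild-type tags and 48.9% (46.2 to 50) of its mutant tags.

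Of the 4 anchors with most tags, 3 were very uneven in both lists and the other was not in wild type. At chr9:30287658-30288808, 9 wild-type tags went left and 140 right, and 7 mutant tags went left and 143 right. Its strongest partner lay 456 kb to the right with 90 wild-type and 66 mutant tags, and a second lay 461 kb to the right with 42 and 23. A partner at 602 kb had 8 wild-type and 36 mutant tags and another at 606 kb was listed in the mutant only, with 18. This anchor had the most tags of all members and also, on average over both lists, a lighter side among the 3 smallest in share.

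At chr14:34116372-34117362, 74 wild-type tags went left and 5 right, and 85 mutant tags went left and 9 right. A single partner 89.6 kb to the left held 71 of the wild-type and all 85 of the left mutant tags. The anchor chr14:56482235-56483395 likewise had 51 left and 5 right wild-type tags, and 88 left and 10 right mutant tags. Its partner 41.2 kb to the left was listed with 40 wild-type and 85 mutant tags. At chr9:121739156-121740852 the sides were more even in wild type, with 20 left and 13 right tags, than in mutant, with 90 left and 20 right.

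The other extremes were set by the lighter side. At chr3:122014630-122015588, 3 wild-type tags went left and 69 right, and 3 mutant tags went left and 61 right. The 3 left tags belonged to a partner 427 kb away in wild type and to another, 16.5 kb away, in mutant. At chr1:134017434-134018819, 3 tags went left in each list, to the same partner at 139 kb, while 55 wild-type and 48 mutant tags went right. A listed interaction has at least 3 tags, so the second side of such anchors rests on the smallest support the lists allow.

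The 3 members with the most even tags, averaged over both lists, follow. At chr11:5081544-5082646, 12 tags went to each side in the wild-type list, and 10 left and 12 right in the mutant list. Its 3 partners were the same in both lists. At chr5:136091567-136092831, 12 left and 13 right wild-type tags stood beside 22 left and 27 right mutant tags. At chr5:24102807-24104949 there were 8 left and 7 right wild-type tags, and 12 left and 9 right mutant tags.

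**Figure D1:**
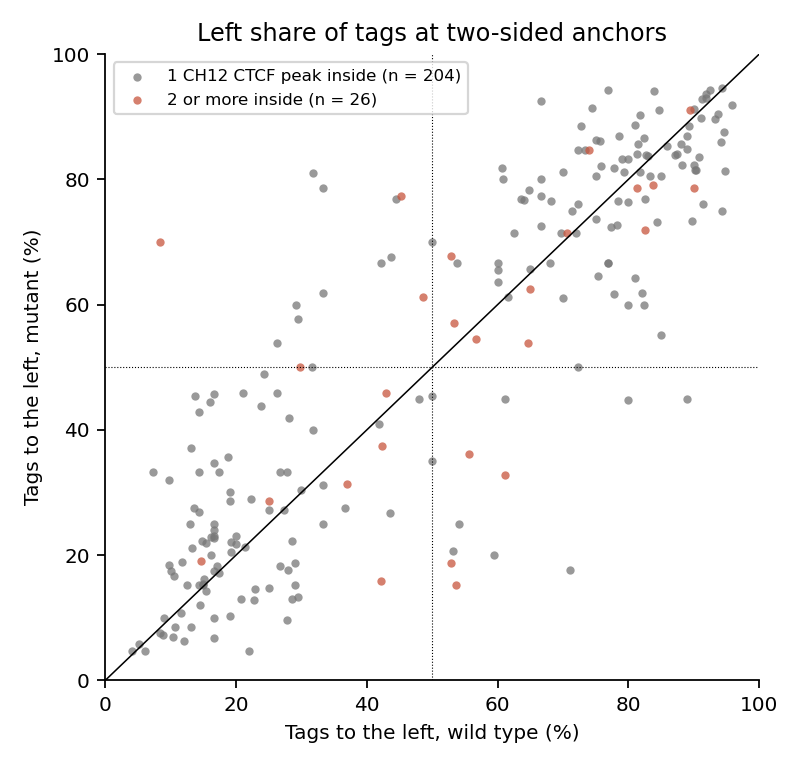
Left share of tags (percent) of each of the 230 two-sided anchors in the wild-type list (x axis) and the mutant list (y axis), with anchors coloured by the number of CH12 CTCF peaks inside them, the diagonal of equal shares, and dotted lines at 50%. Most anchors lie in the lower left and upper right, heavier on the same side in both lists. By their wild-type median, red points (2 or more peaks, 26 anchors) lie nearer the middle than grey ones (1 peak, 204 anchors). Several red points lie far from the middle in both lists.

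The heavier side was mostly the same in both lists. Of 224 members with unequal tags in each list, 201 (89.7%, 85.1 to 93.1) had more tags on the same side in both, 106 on the left and 95 on the right. The heavier side was left in wild type and right in mutant at 11 members, and the reverse at 12. The side with more partners was the same at 172 of 197 members (87.3%, 81.9 to 91.3) where 1 side had more in each list. The left share of tags moved by a median of 7.83 percentage points in either direction and by 25 points or more at 26 members. Over the 230 members, Pearson's r between the left shares was 0.86 and Spearman's rho 0.84. The lists share kept partners and the selection rule, so these are descriptions.

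Members with the largest changes of side were exceptions to this pattern. At chr5:117954143-117957121, 3 wild-type tags went left and 33 right, and 14 mutant tags went left and 6 right, so that the left share went from 8.33% to 70.0%. The 4 right partners between 427 and 564 kb, with 6, 20, 3 and 4 wild-type tags, were not in the mutant list. A right partner at 332 kb, itself a member, was in the mutant list only. At chr7:17587144-17588618 the left share went from 71.1% to 17.6%. There, a left partner at 51.5 kb had 26 wild-type and 9 mutant tags, and a right partner at 64.1 kb had 13 wild-type and 33 mutant tags. At chr2:167505058-167506922 the left share went from 31.8% to 81.0%, with 7 left and 15 right wild-type tags and 17 left and 4 right mutant tags.

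Members reached about equally far to each side in the group as a whole. The farthest left partner lay at a median of 133 kb and the farthest right partner at 134 kb in wild type, and at 145 and 153 kb in mutant. A given member was rarely symmetric. The longer reach was a median of 2.67 times the shorter (2.30 to 3.14) in wild type and 2.56 times (2.16 to 3.16) in mutant, and it was 5 times or more the shorter at 52 and 61 members. The farther partner lay on the side with more tags at 157 of 227 members (69.2%, 62.9 to 74.8) in wild type and at 156 of 227 (68.7%, 62.4 to 74.4) in the mutant list. The side with more tags mostly had more partners too, and a side with more partners holds the farthest one more often by number alone. The part of partner number in these shares was not tested. The nearest partner was also the strongest at 77 members in each list (33.5%, 27.7 to 39.8).

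The sum of the farthest left and right distances had a median of 290.3 kb (262 to 339.6) in wild type and 363 kb (318 to 422) in mutant. Member by member, the sum was longer in the mutant list at 102, shorter at 49 and identical at 79, so that the median log2 ratio of mutant over wild type was 0 (0 to 0.02). On the left, the farthest partner was farther away in the mutant list at 68 members and nearer at 43. On the right, it was farther at 63 and nearer at 26. One-sided anchors showed the same direction. Their farthest partner was farther in the mutant list at 216 of 542 (39.9%, 35.8 to 44.0) and nearer at 76 (14%, 11.4 to 17.2). Over the whole lists, interactions found only in mutant also had a longer median span, 173 kb, than those found only in wild type, 127 kb.

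**Figure D2:**
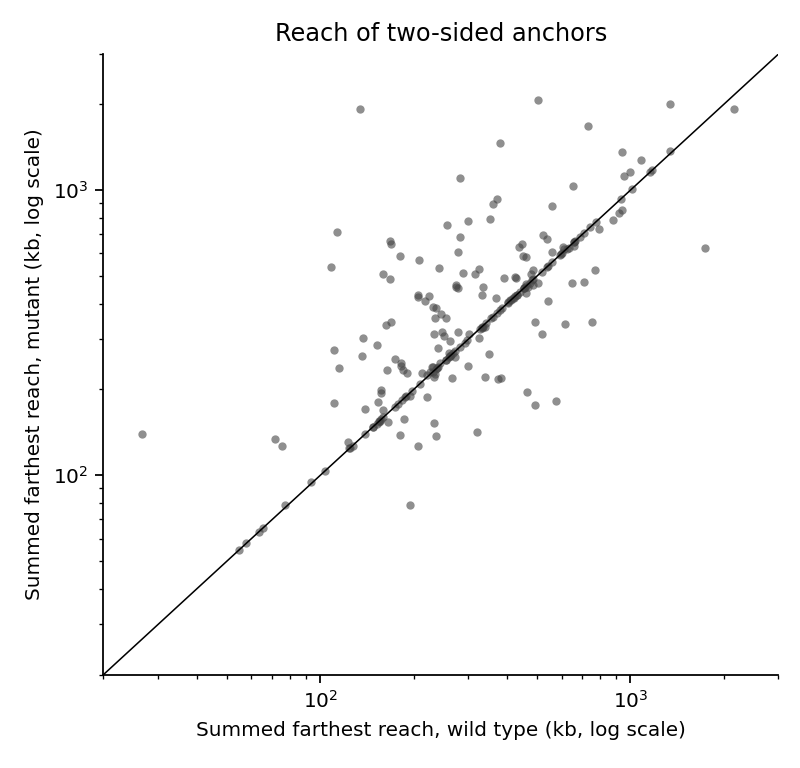
Summed farthest reach, the distance to the farthest left partner plus that to the farthest right partner (kb, log scales), of each of the 230 two-sided anchors in the wild-type list (x axis) and the mutant list (y axis), with the diagonal of equal reach. The 79 anchors on the diagonal had the same farthest partners in both lists, and 102 lie above it and 49 below.

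The anchor with the largest reach on the mean of both lists, chr6:96954690-96957481, had wild-type partners 1948, 1908 and 1782 kb to the left, the last 2 also in the mutant list, and 1 right partner in each list, at 203 kb in wild type and 21.4 kb in mutant. The authors listed no interaction over 2 Mb, which bounds such values. At chr14:78672973-78674200, a left partner at 1132 kb had 17 wild-type and 24 mutant tags, and the farthest left partner, at 1770 kb, was in the mutant list only, with 3. On the mean of both lists the smallest reach belonged to chr9:58116222-58117548, which spanned 54.9 kb in both lists, from a partner 42.6 kb to the left to one 12.2 kb to the right. At chr4:106165892-106166817, the same 3 partners within 57.7 kb were listed in both lists, with 37 left and 5 right wild-type tags and 24 left and 4 right mutant tags.

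Compared with one-sided anchors, members had more tags and wider anchors. The median was 26 tags (24 to 28) against 20 (20 to 21) in wild type and 30 (28 to 33) against 25 (24 to 26) in mutant. Their single farthest partner lay at a median of 216 kb (189 to 237) against 249 kb (234 to 264) in wild type, and 262 kb (232 to 293) against 307 kb (278 to 325) in the mutant list, with overlapping intervals in each. Members were also wider, with a median of 1265 bp (1213 to 1343) against 1110 bp (1087 to 1136). Tags and distance are tied to the selection, so only anchor width here was not used by the rule.

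CTCF binding sites were counted in 2 ChIP-seq peak lists, with 39438 peaks for wild-type CH12 and 59978 for B cells, resting and activated. Neither list is of the mutant line, so whether these sites were bound in mutant cells was not examined. Every member held at least 1 peak of each list inside the anchor, as did the one-sided anchors. In the CH12 list 204 members held 1 peak, 24 held 2 and 2 held 3. At least 2 CH12 peaks were found inside 26 members (11.3%, 7.83 to 16.0), 34 one-sided anchors (6.27%, 4.52 to 8.64) and 3.63% of all anchors of either list. In the B cell list the shares were 9.57% (6.40 to 14.1) of members and 5.72% (4.06 to 8.00) of one-sided anchors. The intervals of members and one-sided anchors overlap in both peak lists. Wider anchors can hold more peaks, and members with 2 or more CH12 peaks inside had a median width of 2256 bp against 1222 bp for those with 1. The part of width in the difference was not tested.

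Within 10 kb of the anchor the sets differed little. At least 2 CH12 peaks lay within 10 kb of 150 members (65.2%, 58.9 to 71.1), 62.9% (58.8 to 66.9) of one-sided anchors and 59.0% of all anchors. The mean number was 2.16 at members and 2.12 at one-sided anchors. In the B cell list, 172 members (74.8%, 68.8 to 80.0) and 74.5% (70.7 to 78.0) of one-sided anchors had 2 or more, and the mean was 2.53 in both sets. At 123 members both peak lists gave the same number, at 87 the longer B cell list gave more and at 20 the CH12 list gave more.

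**Figure D3:**
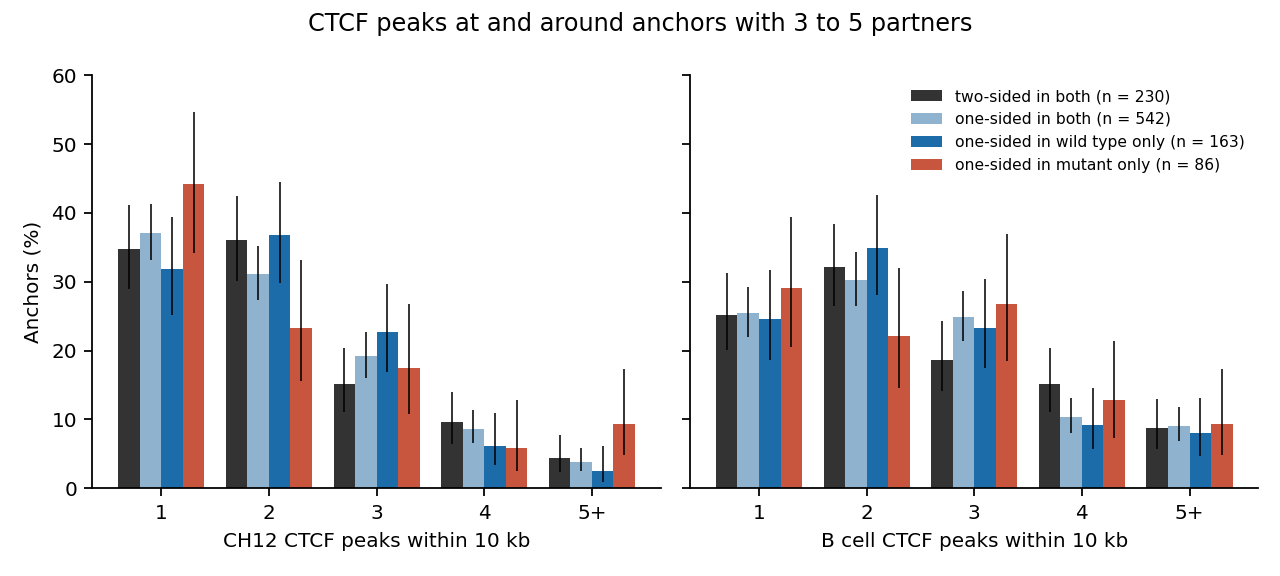
Share of anchors (percent, bars from 0, with 95% Wilson intervals) by the number of CTCF peaks within 10 kb in the CH12 list (left) and the B cell list (right), for the 230 two-sided anchors and for the one-sided sets of 542, 163 and 86 anchors with 3 to 5 partners in each list. The bars of two-sided anchors and of those one-sided in both lists overlap in their intervals in every class.

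The peaks inside members ranked high. The highest CH12 peak of a member had a median score percentile within its list of 92.3 (90.1 to 93.9), against 83.1 (80.6 to 85.5) for one-sided anchors and 72.5 for all anchors. With 3 partners in each list, where partner numbers are equal by construction, the medians were 88.2 (82.8 to 92.2) and 80.7 (78.1 to 84.6), and these intervals overlap. In the B cell list, by fold over background, the medians were 74.4 (71.0 to 77.9) for members and 69.9 (67.5 to 72.1) for one-sided anchors. Members also had more tags and wider anchors than one-sided anchors, and the highest peak tends to rank higher where several lie inside. The parts of tag number, anchor width and peak number in this difference were not tested.

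Members with several sites were more even in the wild-type list. The lighter side held a median of 36.2% (25 to 43.3) of wild-type tags at the 26 members with 2 or more CH12 peaks inside, and 19.6% (17.6 to 22) at the 204 with 1. In the mutant list the medians were 29.3% (21.4 to 37.5) and 21% (18.8 to 23.1), with overlapping intervals. Median wild-type tags were 27.5 and 25. For peaks in the wider window the medians were close. The lighter side held 21.4% (17.6 to 25) of wild-type tags at members with 2 or more CH12 peaks within 10 kb and 20% (17.4 to 22.7) at those with 1.

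CH12 peaks in a single flank lay more often beside the lighter side. Of 104 members with unequal wild-type tags and a CH12 peak in only 1 of the 10 kb flanks, the peak was on the heavier side at 39 (37.5%, 28.8 to 47.1). With mutant tags and the same wild-type CH12 peaks, the number was 37 of 103 (35.9%, 27.3 to 45.5). The heavier side was mostly the same in both lists, so this count largely repeats the wild-type one. With wild-type tags and B cell peaks it was 43 of 103 (41.7%, 32.7 to 51.4), an interval that includes an equal split. At one-sided anchors, the flanking peak was on the side of the partners at 57 of 246 (23.2%, 18.3 to 28.8). Another anchor of either list lay within 10 kb of 47.0% of members and 47.0% of one-sided anchors.

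The 3 members with most CH12 peaks within 10 kb each had fewer B cell peaks in that window. The anchor chr5:113601884-113605644 had 8 CH12 and 6 B cell peaks within 10 kb, 2 of the CH12 peaks inside it. Its 3 partners were the same in both lists, with 36 left and 7 right wild-type tags and 19 left and 5 right mutant tags. One partner, 19.4 kb to its left, was the member chr5:113583744-113584890. The anchor chr5:117954143-117957121, described above for its change of side, also had 8 CH12 peaks within 10 kb, 3 of them inside, and 6 B cell peaks, 1 of them inside. At chr11:98647955-98650801, with 6 CH12 peaks within 10 kb and 3 inside but 3 B cell peaks within 10 kb and 1 inside, 14 left and 17 right wild-type tags stood beside 17 left and 5 right mutant tags. The right partner at 41.4 kb, with 11 wild-type tags, was not in the mutant list.

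Partner turnover was close to that of one-sided anchors. Of 842 wild-type partners, 578 (68.6%, 65.4 to 71.7) were kept, meaning that the identical partner anchor was listed for that member in the mutant list, while 264 were lost. Of 866 mutant partners, the same 578 made up 66.7% (63.5 to 69.8), and 288 were gained. At one-sided anchors the kept share was 68.9% (66.8 to 71.0) for wild-type partners and 67.3% (65.2 to 69.4) for mutant ones. Over all interactions, 46.8% of wild-type and 45.7% of mutant entries had a match. The rule requires several partners in both lists, which bears on all these shares but the last.

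Few members had the same set of partners in both lists. No partner was kept at 5 members, 1 at 23, 2 at 72, 3 at 110, 4 at 19 and 5 at 1. The set was identical at 30 members (13%, 9.29 to 18.0), and 146 (63.5%, 57.1 to 69.4) both lost and gained partners. A kept partner was present on both sides at 170 members (73.9%, 67.9 to 79.2) and on 1 side only at 55. Kept partners carried most of the tags, 81.2% in wild type and 82.2% in mutant, and the strongest partner was kept in 85.1% (80.2 to 88.9) and 88.4% (83.9 to 91.8) of cases.

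All 5 partners were kept at chr3:87572453-87575014, with 12 left and 16 right wild-type tags and 17 left and 20 right mutant tags. Their tags moved in different directions. The partner 47.0 kb to the right had 10 wild-type and 3 mutant tags, and the partner 218 kb to the right 3 and 11. At chr5:113583744-113584890, all 4 wild-type partners were kept and 1, 71.5 kb to the right, was gained, with 39 left and 8 right wild-type tags and 67 left and 13 right mutant tags. At chr16:21391698-21393549, 4 partners were kept. Of these, 3 with 49 wild-type tags in all, lay between 188 and 200 kb to the left, and the only right partner, at 20.3 kb, had 5 wild-type and 10 mutant tags.

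No partner was kept at chr11:83369527-83370516, where 3 left and 23 right wild-type tags stood beside 3 left and 25 right mutant tags. Its sides kept their weight although no partner anchor was identical. Several partners of 1 list lay within 10 kb of a partner of the other, and the looser matching would count them as kept. The right partners were at 76.4, 172 and 380 kb in wild type and at 83.1, 183 and 229 kb in mutant. The left partners of the lists lay 113 and 116 kb away. At chr5:118286441-118288025, also with no kept partner, 6 left and 3 right wild-type tags stood beside 17 left and 5 right mutant tags, and 1 of its gained left partners was the member chr5:117954143-117957121. At chr8:108237698-108238865, 4 left and 8 right wild-type tags became 11 left and 3 right mutant tags with no partner in common.

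The number of tags of an interaction went with its being kept. In the wild-type list, 46.8% (40.3 to 53.4) of partners with 3 tags were kept, 63.2% with 4 to 5, 75% with 6 to 9, 92.5% with 10 to 19 and 93.8% (85.2 to 97.6) with 20 or more. In the mutant list the shares ran from 39.4% (32.9 to 46.3) to 97.7% (92.0 to 99.4). The kept share also differed with distance. In the mutant list it was 78.4% (71.3 to 84.2) under 50 kb and 42.9% (32.8 to 53.5) at 400 kb or more. In the wild-type list it was 63.2% (56.1 to 69.7) under 50 kb, 73.8% (67.2 to 79.5) from 50 to 100 kb and 54.5% (42.6 to 66.0) at 400 kb or more.

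Lone partners and partners with company on their side were also set side by side. The only partner of a side was kept in 152 of 202 cases (75.2%, 68.9 to 80.7) in the wild-type list, against 426 of 640 (66.6%, 62.8 to 70.1) for 1 of several. The shares in the mutant list were 75% (68.3 to 80.7) and 64.5% (60.9 to 68.0). The intervals overlap in wild type and not in mutant. Lone partners had fewer tags, with medians of 4 against 6 in wild type and 5 against 6 in mutant. Among wild-type interactions with 3 tags, 58.7% (46.4 to 70.0) of lone partners and 42.0% (34.6 to 49.9) of the others were kept, and with 6 to 9 tags 88.1% (75 to 94.8) and 71.4% (63.8 to 78.0), with overlapping intervals in each class. The rule bears on this difference, since a lone partner that was lost had to be replaced by another on its side for the anchor to be a member.

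**Figure D4:**
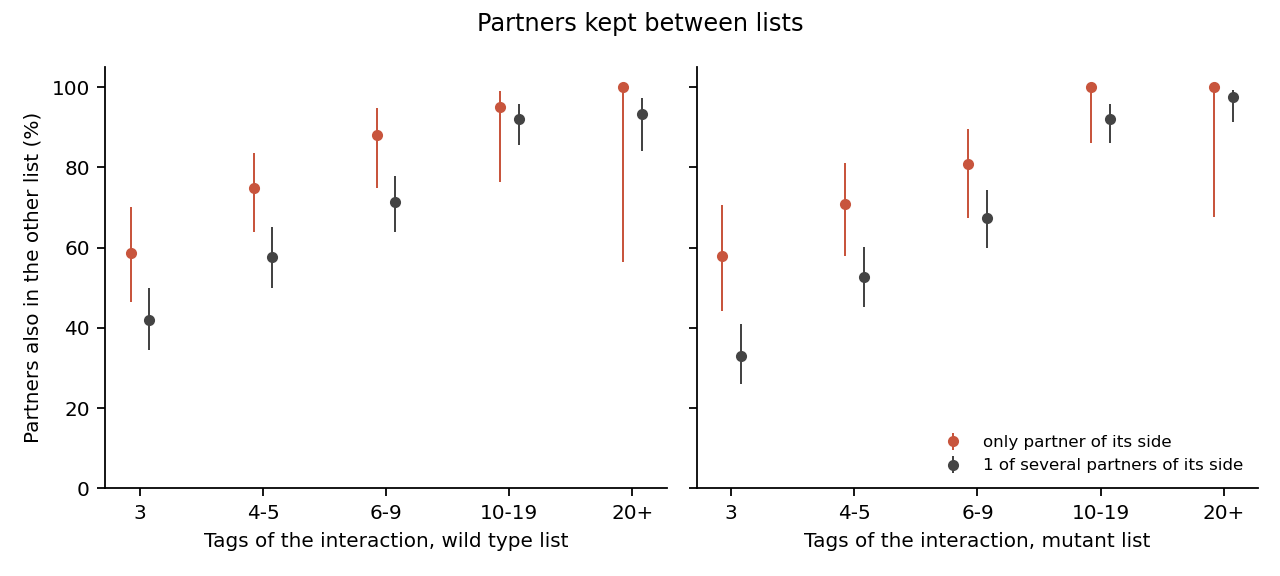
Share of partners of the 230 two-sided anchors that were also in the other list (percent, with 95% Wilson intervals) by the tags of the interaction, for wild-type partners (left) and mutant partners (right), with the only partner of a side in red and 1 of several in grey. The share rises with tags in both lists, and the red points lie above the grey in each class of fewer than 10 tags.

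Lost and gained partners differed in distance. Lost partners lay at a median of 112 kb (97.0 to 132) and gained ones at 170.4 kb (139 to 200), with kept ones at 116 kb (103 to 125). For one-sided anchors these medians were 136 kb (125 to 149), 228 kb (210.1 to 254) and 159.6 kb (150.0 to 168). Lost and gained partners each had a median of 4 tags, against 6 wild-type and 8 mutant tags for kept partners. The highest CH12 peak of a partner anchor had a median score percentile of 83.8 (81.9 to 85.9) for kept, 75.9 (73.2 to 79.9) for lost and 80.3 (76.3 to 83.1) for gained partners.

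Gained and lost partners were also looked up among the anchors of the other list. Of 288 gained partners, 204 (70.8%, 65.3 to 75.8) were already an anchor of some other interaction in the wild-type list. Of 264 lost partners, 115 (43.6%, 37.7 to 49.6) were still an anchor in the mutant list. At one-sided anchors the shares were 62.1% (58.2 to 65.8) and 33.0% (29.3 to 37.0). Many anchors of either list were in both, as the counts given above show. The share over all anchors of each list was not set beside these values. Whether they are particular to members therefore cannot be told. A partner found only in the other list lay on the same side within 10 kb of 35 lost partners (13.3%, 9.69 to 17.9).

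Tags of kept interactions were scaled by all listed tags of each library. Of 554 distinct kept interactions of members, 76 (13.7%, 11.1 to 16.8) were 2-fold or more higher in the mutant list, where 12.6% of all 5400 interactions in both lists were. Another 60 (10.8%, 8.51 to 13.7) were 2-fold or more lower, where 10.9% of all were. Both shares were near those of all interactions. The median log2 ratio of mutant over wild type was 0.05 (-0.15 to 0.17) for members and 0.00 for all. Scaled by the tags of interactions in both lists instead, 64 (11.6%) were higher and 74 (13.4%) lower, where 11.1% and 12.6% of all 5400 were. Among the 272 kept interactions with 10 or more tags in 1 of the lists, 59 (21.7%) were higher and 42 (15.4%) lower, where 21% and 15.8% of all 2248 such interactions were. At chr9:121739156-121740852 the partner 133 kb to the left had 20 wild-type and 83 mutant tags, while at chr4:106165892-106166817 the partner 19.3 kb to the left had 32 and 14.

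Partners on opposite sides of a member were often listed as interacting with each other, across the member. Of 652 wild-type pairs of a left and a right partner, 226 (34.7%, 31.1 to 38.4) were joined by a listed interaction, and of 706 mutant pairs 262 (37.1%, 33.6 to 40.7). Pairs of partners on the same side were joined less often, 89 of 528 (16.9%, 13.9 to 20.3) in wild type and 117 of 558 (21%, 17.8 to 24.5) in the mutant list. At one-sided anchors, whose pairs are all on the same side, 14.9% (13.5 to 16.4) and 19.7% (18.2 to 21.3) were joined. With no upper limit of partners, the shares were nearer to each other in both lists. In wild type they were 24.0% (21.9 to 26.3) for opposite-side and 17.7% (15.85 to 19.7) for same-side pairs. In the mutant list they were 22.1% (20.3 to 24.0) and 18.6% (17.0 to 20.4).

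Opposite-side pairs were farther apart, with a median of 239.7 kb against 54.7 kb in wild type and 273 kb against 68.0 kb in mutant. From 100 to 200 kb, 45.9% (38.9 to 53.1) of opposite-side and 29% (20.8 to 38.9) of same-side wild-type pairs were joined, and 51.2% (43.7 to 58.7) and 28.3% (20.8 to 37.2) of mutant pairs. Under 100 kb the wild-type shares were 36.5% (26.4 to 47.9) and 13.7% (10.6 to 17.7). Distance was not matched within this class, and same-side partners could lie very close together. At chr3:122014630-122015588, for example, right partners lay at 154 and 156 kb in both lists. The part of distance within a class was not tested. At 400 kb or more only 17 wild-type pairs were on the same side, and the shares were 20% (14.7 to 26.5) and 23.5% (9.56 to 47.3). Each such join made a set of 3 anchors joined in all 3 combinations. No share over other anchors was set beside the counts that follow. At least 1 opposite-side pair was joined at 139 members (60.4%, 54.0 to 66.5) in wild type and 155 (67.4%, 61.1 to 73.1) in the mutant list, at 125 in both lists and at 61 in neither. The joins had a median of 7 tags in each list, and 133 joined the same pair of anchors in both.

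**Figure D5:**
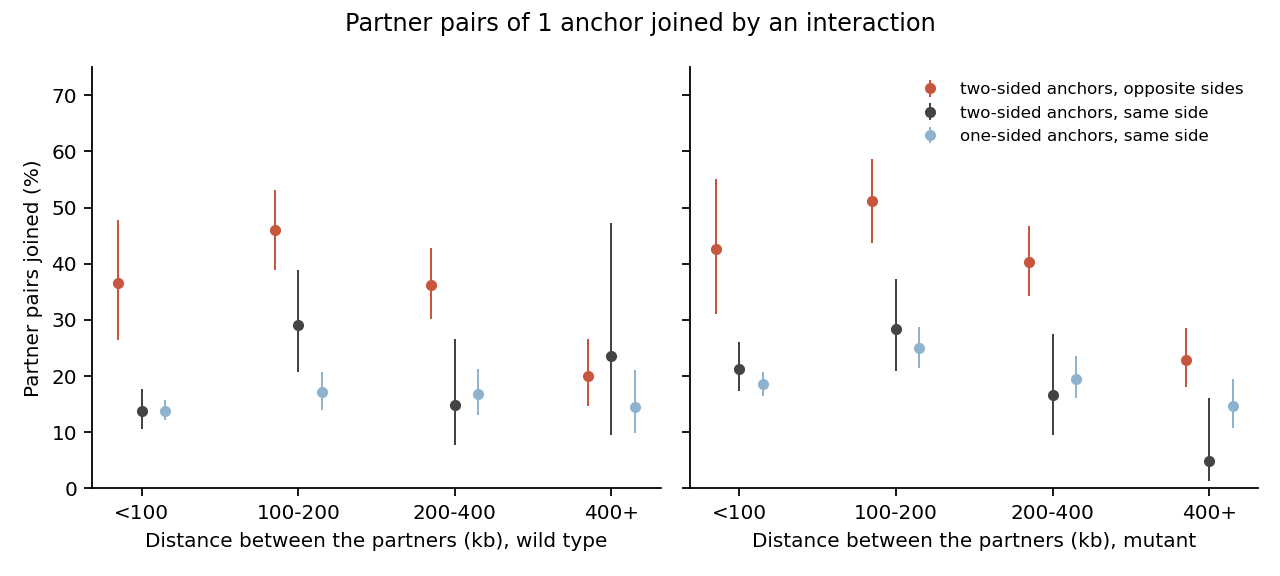
Share of partner pairs of 1 anchor that were themselves joined by a listed interaction (percent, with 95% Wilson intervals) by the distance between the partners, in the wild-type list (left) and the mutant list (right), for opposite-side pairs (red) and same-side pairs (grey) of the 230 two-sided anchors and for pairs of the 542 one-sided anchors (blue). The red points lie above the other 2 in each class under 400 kb. Distance was not matched within a class.

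The sidedness of the partners themselves was near that of the list in wild type. In mutant the share on 1 side was slightly lower than that of the list. Among the 644 wild-type partners with 2 or more partners of their own, 461 (71.6%, 68.0 to 74.9) had all of them on the side of the member, and among 700 mutant partners 425 (60.7%, 57.0 to 64.3) did. Counted the same way over the partners of all anchors, 73.2% in wild type and 64.4% in mutant had all partners on 1 side. A lower share in mutant than in wild type was thus not particular to members. For partners of one-sided anchors the shares were 60.5% (57.6 to 63.2) and 55.2% (52.5 to 57.9).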

How the data were processed

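ChIA-PET interactions at CTCF peaks of 1 wild-type and 1 mutant CH12 library were used as deposited by the authors, as counts of supporting tags per interaction. Per the file headers, these were mapped to CTCF peak calls and listed if supported by 3 or more tags and no longer than 2 Mb. Sums of listed tags (74198 and 82222) are therefore not library depths. The build, per the submitters' processing notes, was mm9, and these name BWA, bedtools 2.25, SAMtools 1.2, Bowtie 1.1.1 and CASAVA 1.8.2. The sources used here do not give the interaction caller. The CH12 peak list holds a score per peak deposited by the authors. The B cell list, as deposited, holds −log10 q-values and a fold over background; its fold was used. Both served as percentiles within their list, and whether libraries were pooled is not given.

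Partners, sides, distances between midpoints, peaks overlapping by 1 bp or within 10 kb, and identical partners between lists were computed with Python 3.11.15 and its packages matplotlib 3.10.9, scipy 1.17.1, pandas 2.3.3 and numpy 2.4.6. The steps were tested on simulated data. A 2-fold change used tags scaled by all listed tags. With 1 library per genotype no test was run. Named anchors were those with most tags (4), most and fewest kept partners (4 each), most and least even tags (3 each), largest and smallest reach (3 each), most CH12 peaks within 10 kb (3) and the largest change of left share (4). The members, lists and rules were chosen with earlier results of these data known. Other samples of the series were not analysed here.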

Additional observations from a re-analysis of the deposited data

How the results depend on the processing

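Of 53 alternative values, 35 stayed within 1.5 times the count or inside the 95% interval of the value reported and 18 moved; 9 of the 53 left out the X chromosome, which holds no member and so could not move any. With interactions of 4 or more tags only, 122 anchors met the rule, 75.7% of wild-type and 70.8% of mutant partners were kept, and 31.0% of opposite-side wild-type pairs were joined against 16.4% of same-side pairs. With no upper limit of partners, 363 anchors met the rule, 61.5% of mutant partners were kept, the median log2 ratio of summed reach was 0.0605, and 24.0% of wild-type and 22.1% of mutant opposite-side pairs were joined, against 17.7% and 18.6% of same-side pairs. Matching partner anchors within 10 kb gave 77.8% of wild-type and 74.2% of mutant partners kept. Here any partner of the other list on the same side could serve as the match, also one already matched to another partner. At least 2 CH12 peaks lay within 5 kb of 52.2% of members and within 20 kb of 83.5%, and at least 2 B cell peaks of 61.3% and 90.9%; with peaks at or above the median score only, the shares within 10 kb were 43.9% and 53.9%. Of kept interactions, 24.5% differed by 2-fold or more in either direction, and 37.1% of the 272 with 10 or more tags in 1 of the lists. The narrower and wider windows, the peak limit, the looser matching, and the tag and partner limits on the number of anchors change these values by construction; for the others the cause was not tested. The partner-pair alternatives were chosen after seeing the data. No paired analysis was possible because each genotype had 1 library, and leaving out a library leaves no comparison.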
